A study of Mus musculus with 12 samples.

Results

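Solute carriers are membrane proteins that move nutrients, metals, ions and metabolites across the plasma membrane or the membranes of organelles, and each symbol starts with Slc and a family number. The set described here held the well-expressed carriers, which were the loci that matched such a symbol in the assembled annotation and whose mean in the deposited normalized table was at least 10 in at least 1 of 3 groups. The carriers of glucose and lactate Slc2a1, Slc2a3, Slc16a1 and Slc16a3, and the adenine nucleotide carrier Slc25a31, were left out by the rule. This gave 150 loci out of 326 carrier loci in the annotation and 80012 loci counted in all. Of the 150 members, 116 reached the level of 10 in each of the 3 groups, 22 in 2 groups and 12 in 1 group. The level itself was used to choose them and is no result. Just inside the limit stood Slc25a14 with a highest group mean of 10.1 and Slc39a13 with 10.9, and just outside it Slc5a11 with 9.78 and Slc23a1 with 9.72.

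The study compared pluripotent cells with early mesendoderm, the layer from which mesoderm and endoderm arise, in 12 libraries of poly(A)-selected RNA from 1 mouse embryonic stem cell line on a C57BL/6 background, in which EGFP was inserted at the endogenous Eomes gene (EomesEGFP). The 4 ESC libraries came from undifferentiated cells at day 0, kept on a layer of fibroblast feeders in ES cell medium. The 4 Eo- and 4 Eo+ libraries came from embryoid bodies of the same line, grown in hanging drops in another medium and sorted at day 3 into EGFP-negative and EGFP-positive cells. Replicates were numbered 1, 2, 5 and 6 in each group. According to the methods of the study the 12 libraries came from 4 separate sets of differentiation of the line, so p-values measure the spread between such sets and not between lines or animals. Every group carried the reporter allele. Medium, LIF, feeders and aggregation changed together with the day, so that their parts in a difference between day 3 and ESC cannot be told apart. Lower RNA per cell and fewer cells of a type cannot be told apart either in such bulk libraries.

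Each library held between 648413022 and 837308168 counts on loci, and the members took 0.961% to 1.09% of them. Summed over marker lists, pluripotency genes gave 2746 to 3564 CPM in ESC, 1272 to 1635 in Eo- and 453 to 801 in Eo+ (CPM are counts relative to the library size after TMM scaling). The mesendoderm genes gave 92.1 to 288 CPM in ESC, 249 to 510 in Eo- and 1716 to 2969 in Eo+. Eomes itself, the gene behind the sort, was at 36.5 to 57.2 CPM in ESC, 116 to 168 in Eo- and 446 to 641 in Eo+, so Eo- was not free of it. Fibroblast markers gave 156 to 446 CPM in ESC, where the feeders were, 41.6 to 58.2 in Eo- and 40.8 to 71.3 in Eo+. Markers of visceral or yolk sac endoderm gave 6.97 to 15.2 CPM in ESC, 7.45 to 20.5 in Eo-, and in Eo+ 110 in replicate 1, 12.8 in replicate 2, 62.2 in replicate 5 and 28.3 in replicate 6. Blood markers were at 2.27 to 2.996 CPM in ESC, 7.37 to 128 in Eo- and 17.9 to 99.4 in Eo+, and neuroectoderm markers at 50.5 to 97.6, 63.7 to 124 and 45.2 to 83.3 CPM. The part of other cells in the values below was not tested.

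Carriers are grouped by what they move. The cationic amino acid and large neutral amino acid carriers feed protein synthesis. Zinc and iron carriers set the metal content of the cell together with metallothioneins and ferritin. The Slc25 family links the mitochondrial matrix to the cytosol. Stem cells are known to depend on amino acid uptake and on nucleotide supply, and both are served by carriers of these families.

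Comparisons were made for 137 members whose mean over all 12 libraries was at least 10 in the normalized table. That choice weighs the 3 groups alike, but 2 of the 137 reached 10 in 1 group only and so passed through it. The 13 members below that mean are described by their values alone. A voom and limma fit across 17922 loci gave each p, adjusted by Benjamini-Hochberg over all of them, and a member counts as called up to 0.05. The same share over all 9169 tested loci at that level is given as background. Between Eo+ and ESC, 109 of the 137 members were called, 60 higher and 49 lower in Eo+, which is 79.6% against a background of 69.7% called, 41.1% called higher and 28.6% called lower. Between Eo- and ESC, 93 members were called (67.9%, background 59.4%), 55 higher and 38 lower in Eo- (background 32.8% and 26.7%). Between Eo+ and Eo-, 80 members were called (58.4%, background 44.2%), 42 higher and 38 lower in Eo+ (background 28.3% and 15.9%). The same shares are the background for the counts of each substrate class and gene list. These comparisons share libraries, so they are not independent of each other.

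The members' shifts were moderate and went both ways. The median log2 fold change was 0.15 in Eo+ against ESC, 0.07 in Eo- against ESC and 0.06 in Eo+ against Eo-, close to the medians of 0.08, 0.04 and 0.06 over the background loci. The median absolute log2 fold change was 0.56, 0.35 and 0.28 for the members and 0.40, 0.29 and 0.20 for the background. No library of one group fell within the range of the other for 92, 77 and 78 members (67.2%, 56.2% and 56.9%), against 62.0%, 51.3% and 42.5% of background loci. With at least a 2-fold change asked for as well, 32, 16 and 14 members were called (23.4%, 11.7% and 10.2%), against 18.5%, 10.9% and 6.77% of background loci.

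**Figure D1:**
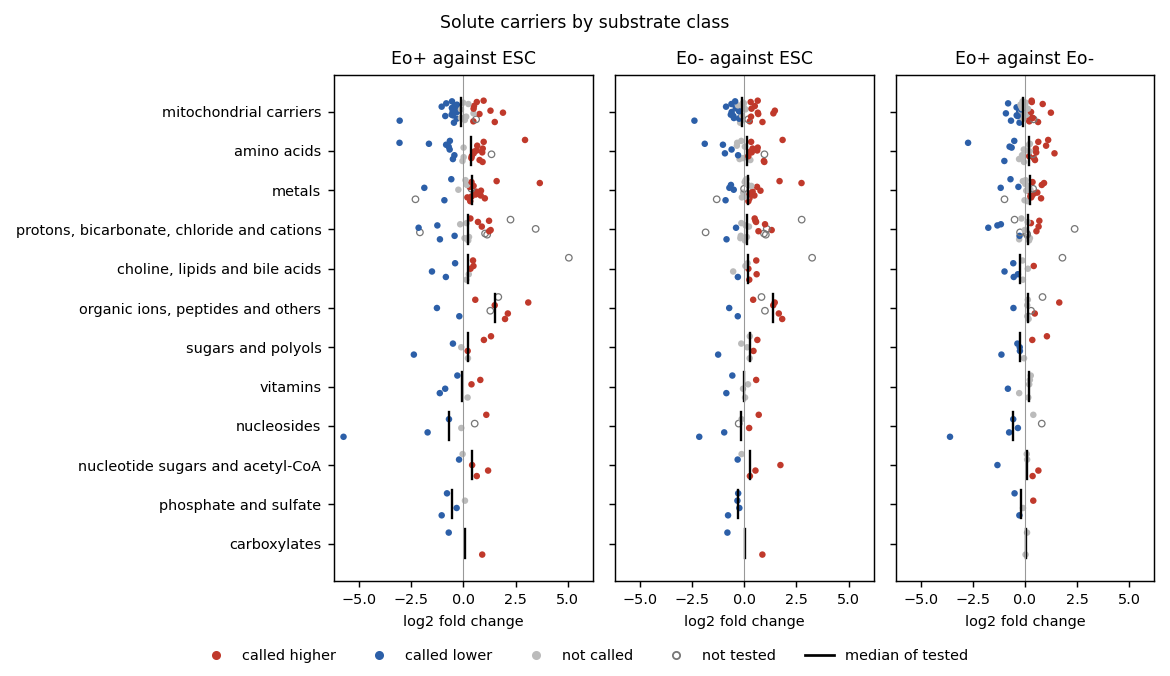
Log2 fold change (horizontal axis) of each of the 150 carriers by substrate class in the 3 comparisons, 1 point per locus, red for called higher, blue for called lower, grey for not called and open for not tested, with the median of the tested members as a black line. Points of most classes lie on both sides of 0, and the metal carriers have 15 red and 3 blue points in Eo+ against ESC.

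In level, mitochondrial carriers were the largest class and amino acid carriers the second. FPKM, which divides counts by exon length and so allows loci to be compared, was summed over the 118 tested members whose locus held no other protein-coding gene. The sum over all of these was 1935 ± 50.9 FPKM in ESC, 1655 ± 20.2 in Eo- and 1738 ± 66.0 in Eo+ (SD, n = 4). Mitochondrial carriers took 51.1% of it in ESC, 50.4% in Eo- and 50.1% in Eo+, and amino acid carriers 22.4%, 20.6% and 20.9%. Shares of metal carriers were 7.75%, 10.3% and 11.5%, and those of nucleoside carriers 5.12%, 3.32% and 2.02%. The smallest sum in ESC after the single carboxylate locus was that of the carriers of organic ions, peptides and others, 9.31 ± 0.8294 FPKM, against 18.4 ± 1.10 in Eo- and 27.2 ± 0.567 in Eo+. With the untested members, whose level in 1 or 2 groups brought them into the set, the sums of that class were 12.7, 24.8 and 37.0 FPKM.

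**Figure D2:**
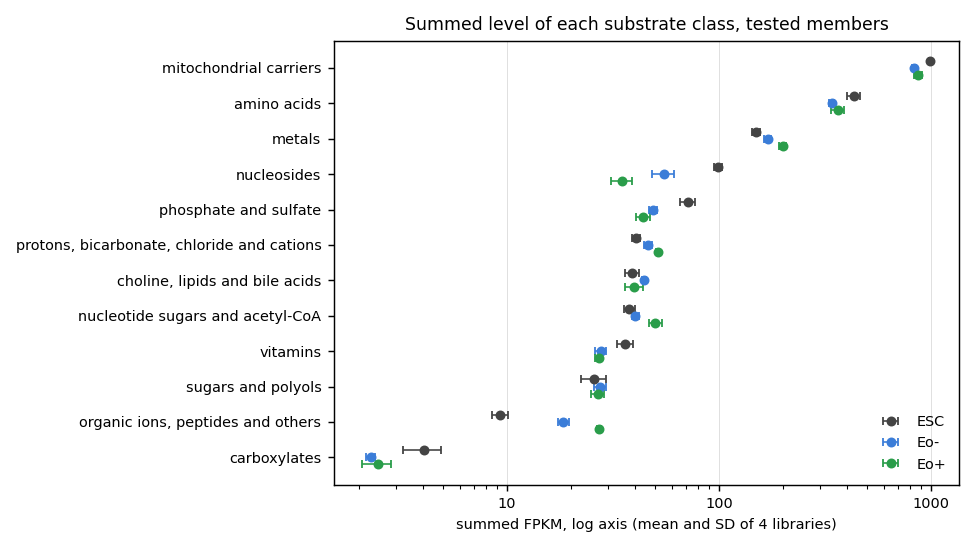
Summed FPKM of each substrate class on a logarithmic axis, mean and SD of 4 libraries per group, over the 118 tested loci without another protein-coding gene. The nucleoside class goes from 99.04 FPKM in ESC to 54.99 in Eo- and 35.02 in Eo+, and the organic ion class from 9.31 to 27.2.

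Amino acid carriers were 24 members, 23 of them tested. In Eo+ against ESC 12 were higher, 8 lower and 3 not called, with a median log2 fold change of 0.38. That is 52.2% higher and 34.8% lower, beside 41.1% and 28.6% of the background loci. In Eo- against ESC 10 were higher and 5 lower, and in Eo+ against Eo- 9 were higher and 5 lower. The split between Eo- and ESC was 11 higher and 4 lower with library totals in place of TMM scaling and 7 higher and 6 lower with DESeq2 size factors.

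Slc7a3, a carrier of arginine and lysine (mm10, chrX:101079136-101087085, minus strand), was the most strongly lowered amino acid carrier in Eo+. It stood at 240, 216, 193 and 251.5 CPM in the ESC libraries, at 153, 154, 209 and 199 in Eo- and at 22.7, 23.1, 46.0 and 21.2 in Eo+. All Eo+ libraries were below all others, and Eo- overlapped ESC. Eo+ differed from ESC by a log2 fold change of -3.06 ± 0.20 (adjusted p = 1.5e-08; errors here and below are the SE for log2 fold changes and the SD of 4 libraries for CPM), an 8.37-fold fall, and from Eo- by -2.73 ± 0.20 (adjusted p = 4.4e-07). In Eo- against ESC it was -0.34 ± 0.17 with an adjusted p of 0.092, which became 0.019 without Eo+ replicate 5, the library that stood apart at 46.0 CPM, and 0.045 with no filter on low loci.

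The second carrier of cationic amino acids, Slc7a1, fell in both fractions. Its values were 60.8, 64.5, 46.0 and 83.2 CPM in ESC, 20.2, 15.3, 14.0 and 17.9 in Eo-, and 27.4, 18.3, 13.2 and 22.5 in Eo+. Both day 3 groups lay below every ESC library. The fall was -1.66 ± 0.21 in Eo+ (adjusted p = 7.8e-06) and -1.89 ± 0.21 in Eo- (adjusted p = 5.2e-06). Between Eo+ and Eo- the log2 fold change was 0.24 ± 0.24 (adjusted p = 0.44). With replicate pairs as a block among the sorted fractions alone it was 0.27 with an adjusted p of 0.038.

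Slc3a2, the heavy chain that brings several Slc7 exchangers to the cell surface, had the highest FPKM of the class. It was measured at 327, 343, 290 and 396 CPM in ESC, 202, 231, 219 and 235 in Eo- and 210, 213, 205 and 224 in Eo+. The day 3 libraries were all below ESC, with a log2 fold change of -0.66 ± 0.08 in Eo+ (adjusted p = 8.1e-06) and -0.61 ± 0.08 in Eo- (adjusted p = 3.2e-05). The 2 fractions overlapped (-0.06 ± 0.09, adjusted p = 0.61). The creatine carrier Slc6a8 fell as well, from 90.1 ± 12.3 CPM in ESC to 44.3 ± 3.41 in Eo- and 51.3 ± 11.1 in Eo+ (adjusted p = 2.4e-05 and 8.3e-05).

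Of the sodium-coupled neutral amino acid carriers of the Slc38 family, 7 were tested, and in Eo+ against ESC 5 were higher and 1 lower. The lower one was Slc38a2, which stood at 466, 342, 389 and 356 CPM in ESC, at 345, 291, 312 and 312 in Eo- and at 299, 294, 269 and 280 in Eo+. All Eo+ libraries were below all ESC libraries (-0.44 ± 0.09, adjusted p = 0.00057). Slc38a1 was at 126 ± 7.60, 140 ± 9.38 and 127 ± 2.58 CPM and passed the test in no comparison. Its difference between Eo+ and Eo- (-0.14) had an adjusted p of 0.048 with the pairs as a block among the sorted fractions and 0.041 without Eo- replicate 2, and that between Eo- and ESC (0.15, adjusted p = 0.053) was called without Eo- replicate 2 or ESC replicate 1 (adjusted p = 0.024 for both), and with the replicate block over the 12 libraries, library totals or the loci of the normalized table (adjusted p of 0.012 to 0.029). Slc38a4, of the same family, was lowest in Eo- and highest in Eo+. It stood at 175, 153, 191 and 200 CPM in ESC, 125, 80.3, 89.4 and 86.7 in Eo-, and 344, 257, 165 and 270 in Eo+. The Eo- libraries were below all others, and Eo+ replicate 5 fell among the ESC values. The carrier was 2.66-fold higher in Eo+ than in Eo- (1.41 ± 0.19, adjusted p = 5.9e-05) and 1.90-fold lower in Eo- than in ESC (-0.93 ± 0.20, adjusted p = 0.0010). Its rise over ESC in Eo+ (0.49 ± 0.19, adjusted p = 0.031) was lost without ESC replicate 1 or 2 or Eo+ replicate 1, 2 or 6, and with the filter of 1 CPM or none, with adjusted p between 0.053 and 0.097.

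Slc6a6, the taurine carrier, was likewise higher in Eo+ than in Eo-. It was at 145, 126, 101 and 91.8 CPM in ESC, 116, 82.5, 79.1 and 84.3 in Eo- and 209, 191, 140 and 189 in Eo+. The Eo+ libraries were above all of Eo- but overlapped the highest ESC library. It was 2.02-fold higher in Eo+ than in Eo- (1.01 ± 0.16, adjusted p = 0.00020) and rose by 0.66 ± 0.16 over ESC (adjusted p = 0.0021). In Eo- against ESC the log2 fold change was -0.35 ± 0.16 with an adjusted p of 0.076. That p was 0.021 without Eo- replicate 1, 0.031 without ESC replicate 6 and 0.050 without Eo+ replicate 5, each of which would call it, and so would the replicate block over the 12 libraries (adjusted p = 0.0062), DESeq2 (0.034) and its size factors (0.047).

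Slc7a8, an exchanger of neutral amino acids, had the largest rise of the class. Its level was 3.19, 2.69, 2.68 and 3.55 CPM in ESC, 14.3, 8.84, 9.53 and 10.8 in Eo- and 40.2, 10.9, 29.4 and 22.3 in Eo+. Every day 3 library exceeded every ESC library, and Eo+ replicate 2 was within the range of Eo-. The log2 fold change was 2.95 ± 0.42 in Eo+ (adjusted p = 2.3e-05), 1.84 ± 0.45 in Eo- (adjusted p = 0.0027) and 1.11 ± 0.33 between the fractions (adjusted p = 0.014). The Eo+ libraries with the highest level, replicates 1 and 5, were also those with the highest sum of visceral or yolk sac endoderm markers, and replicate 2 was lowest in both. The part of such cells in this rise was not tested.

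Slc1a5, a glutamine carrier, went from 54.0 ± 15.6 CPM in ESC to 44.7 ± 2.82 in Eo- and 36.7 ± 2.47 in Eo+, and its fall in Eo+ was called (-0.51 ± 0.16, adjusted p = 0.010). Its difference of -0.28 between Eo+ and Eo- had an adjusted p of 0.16, of 0.048 without ESC replicate 6 and of 0.0075 with the pairs as a block among the sorted fractions. In Eo- against ESC it was -0.22 (adjusted p = 0.22, and 0.016 without ESC replicate 5). Slc1a4, a carrier of alanine, serine and cysteine, stood at 32.9, 29.4, 21.9 and 55.0 CPM in ESC, 42.7, 37.7, 36.7 and 42.7 in Eo-, and 59.8, 58.5, 48.1 and 56.8 in Eo+. ESC replicate 6 was within the Eo+ range and the other 3 ESC libraries were below it. The rise in Eo+ was 0.77 ± 0.19 (adjusted p = 0.0025). The rise over Eo- (0.48 ± 0.19, adjusted p = 0.048) was lost when any of 9 libraries was left out, namely ESC replicates 1 and 2, the 4 Eo- libraries and Eo+ replicates 1, 2 and 6, with adjusted p of 0.057 to 0.11. It was also lost with library totals, the loci of the normalized table, the filter of 1 CPM, no filter and edgeR (adjusted p of 0.050 to 0.10). Without ESC replicate 6, Slc1a4 was also called higher in Eo- than in ESC (0.53, adjusted p = 0.0040, against 0.29 and 0.21 with it). Slc16a10, which carries aromatic amino acids, was called higher in both fractions, at 7.59 ± 1.33 CPM in ESC, 14.7 ± 3.09 in Eo- and 14.1 ± 0.933 in Eo+.

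**Figure D3:**
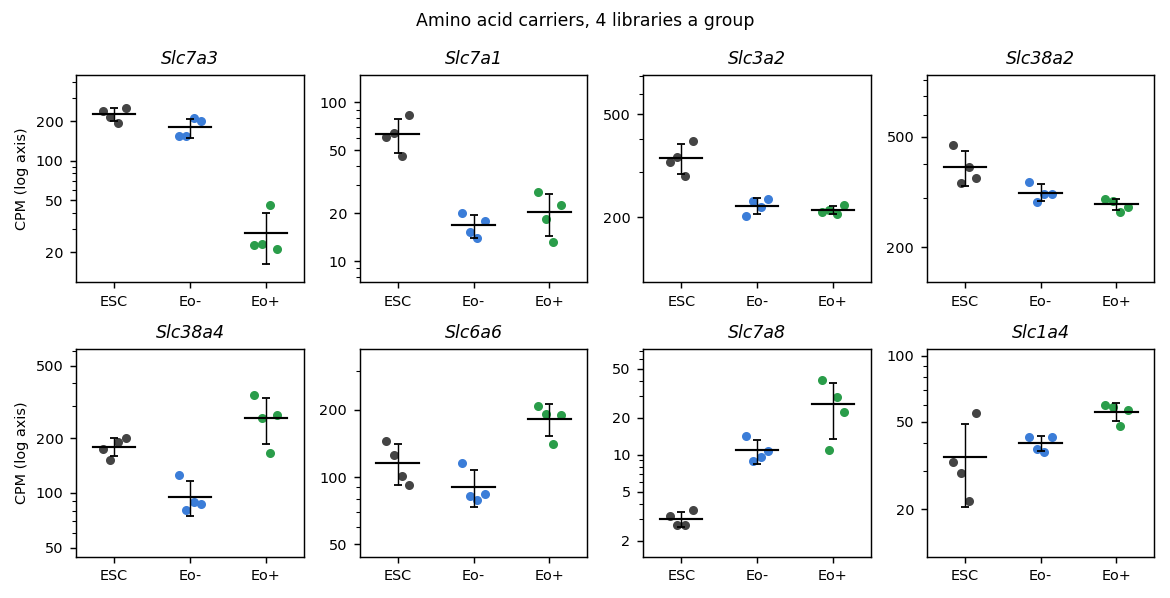
CPM of 8 amino acid carriers on logarithmic axes, 1 point per library (replicates 1, 2, 5 and 6 from left to right), with the mean as a line and the SD of 4 libraries as a bar. Slc7a3 is low in the 4 Eo+ libraries alone, Slc7a1 and Slc3a2 are low in both day 3 groups, and Slc38a4 and Slc6a6 are lower in Eo- than in Eo+.

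Amino acid shortage is sensed through the factor Atf4, which binds amino acid response elements in the promoters of biosynthetic enzymes and of several carriers. A list of genes of this response, of which 22 were found, was set beside the carriers. Of its 18 tested genes, 2 were higher and 13 lower in Eo+ than in ESC (median log2 fold change -0.81), 1 was higher and 10 lower in Eo- than in ESC (median -0.74), and 4 were higher and 2 lower in Eo+ than in Eo- (median 0.03). The background shares were 41.1% higher and 28.6% lower in Eo+ against ESC, and 32.8% and 26.7% in Eo- against ESC. They were 28.3% and 15.9% in Eo+ against Eo-. Asns, asparagine synthetase, was at 262, 352, 243 and 401 CPM in ESC, 144, 133, 123 and 129 in Eo- and 165, 135, 132 and 137 in Eo+. It was thus lower in every day 3 library, by -1.22 ± 0.14 in Eo- and -1.11 ± 0.14 in Eo+ (adjusted p = 5.3e-06 and 6.1e-06). Vldlr, a lipoprotein receptor, was one of the 2 higher in Eo+, at 5.29 ± 1.75 CPM in ESC and 42.5 ± 17.7 in Eo+.

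The letters TGATGNAA, the core of the amino acid response element, were sought on both strands in RefSeq promoters (GRCm38.p6, 250 bases before to 50 after each start). They were in 4 of the 111 members that matched an entry (3.60%), in 4.51% of 27025 genes with a promoter and in 2.35% of 7475 genes from other loci at the level tested. Among amino acid carriers with an entry, 2 of 17 held them. Slc1a4 is shown because it was called higher in Eo+ than in ESC, while 13 of the 18 tested genes of the list were called lower. The match, in capitals, is the reverse complement of the motif and spans the start of transcription, from 4 bases before it to 4 after. The stretch is chr11:20332684-20332963, minus strand.
Slc1a4: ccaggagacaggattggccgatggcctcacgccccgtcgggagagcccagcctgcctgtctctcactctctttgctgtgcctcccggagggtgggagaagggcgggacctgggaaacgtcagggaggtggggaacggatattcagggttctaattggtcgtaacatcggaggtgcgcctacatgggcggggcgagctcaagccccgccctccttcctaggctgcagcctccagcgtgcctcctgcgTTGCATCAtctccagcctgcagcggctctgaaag

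Metal carriers were 24 members, 22 of them tested. In Eo+ against ESC 15 were higher, 3 lower and 4 not called, with a median log2 fold change of 0.39. In Eo- against ESC 10 were higher and 4 lower, and in Eo+ against Eo- 11 were higher and 3 lower. The share called higher in Eo+ against ESC was 68.2%, beside 41.1% of the background loci. With library totals or DESeq2 size factors in place of TMM scaling, 16 or 14 were higher and 3 or 4 lower in Eo+ than in ESC, and 13 or 8 higher and 4 lower in Eo- than in ESC.

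Zinc importers of the Slc39 family, which bring zinc and in part iron and manganese into the cytosol, numbered 10 tested members, 6 higher and 1 lower in Eo+ than in ESC. Slc39a8 (mm10, chr3:135767455-135893956, plus strand) had the largest rise of any tested carrier in that comparison. It stood at 3.91, 7.15, 7.31 and 3.60 CPM in ESC, at 41.2, 28.6, 43.5 and 29.3 in Eo- and at 94.3, 39.2, 94.3 and 54.0 in Eo+. The lowest day 3 library was well above the highest ESC library, and Eo+ replicate 2 lay within the Eo- range. The rise was 12.6-fold in Eo+ (3.66 ± 0.39, adjusted p = 1.5e-06), 6.70-fold in Eo- (2.74 ± 0.40, adjusted p = 4.9e-05) and 1.88-fold between the fractions (0.91 ± 0.27, adjusted p = 0.013). Within Eo+ the order of the libraries again followed the endoderm markers, with replicates 1 and 5 high and replicate 2 lowest. Eo+ replicate 2, whose endoderm marker sum of 12.8 CPM was within the range of ESC, held 39.2 CPM. The part of endoderm cells in the rise was not tested.

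Slc39a14, a related importer of zinc, iron and manganese, ran the other way. It was at 81.0, 50.7, 52.8 and 57.5 CPM in ESC, 37.2, 33.3, 37.2 and 37.9 in Eo-, and 16.5, 16.8, 15.9 and 15.8 in Eo+. The 3 groups did not overlap. The fall was 3.67-fold in Eo+ (-1.88 ± 0.14, adjusted p = 5.8e-08), 1.64-fold in Eo- (-0.71 ± 0.12, adjusted p = 0.00021) and 2.24-fold between the fractions (-1.16 ± 0.15, adjusted p = 3.1e-05). Fibroblast markers were also highest in ESC, at 422, 211, 446 and 156 CPM in replicates 1, 2, 5 and 6, and ESC replicate 6, with the lowest of these sums, held 57.5 CPM of Slc39a14. The part of feeder cells in the fall was not tested. Slc39a10, an importer of the plasma membrane, rose in both fractions, from 76.7 ± 7.13 CPM in ESC to 132 ± 21.3 in Eo- and 137 ± 15.7 in Eo+ (0.78 ± 0.12 and 0.84 ± 0.12, adjusted p = 6.7e-05 and 2.0e-05).

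Zinc exporters of the Slc30 family, which move zinc out of the cytosol, were 6 tested members, and in Eo+ against ESC 5 were higher and 1 lower. The 5 higher ones, Slc30a4, Slc30a5, Slc30a6, Slc30a7 and Slc30a9 (named after their values were seen), serve vesicles, the secretory pathway or other organelles, and had log2 fold changes of 0.19 to 1.02. The call of Slc30a5, the smallest of them, was lost under 7 of the alternatives (adjusted p up to 0.27). The lower one was Slc30a1, the exporter of the plasma membrane. It stood at 52.5, 45.7, 46.4 and 43.3 CPM in ESC, 24.7, 24.1, 26.5 and 25.8 in Eo-, and 25.5, 24.9, 24.8 and 24.4 in Eo+. Both fractions were below every ESC library and overlapped each other. The fall was -0.91 ± 0.07 in Eo+ (adjusted p = 9.4e-08) and -0.89 ± 0.07 in Eo- (adjusted p = 2.8e-07), with -0.02 ± 0.08 between the fractions (adjusted p = 0.85).

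Zinc acts on transcription through Mtf1, which binds metal response elements in the promoters of Slc30a1 and the metallothioneins. The letters TGCNCNC, sought on both strands, were in 71 of 111 member promoters (64.0%), in 53.6% of all genes and in 64.7% of genes from other loci at the level tested, so the members' share stood close to that of loci at their level. Among metal carriers 13 of 18 held them. Slc30a1 and Slc39a8 are shown because they moved in opposite directions and both promoters hold the motif, in capitals, as its reverse complement. The stretches start 250 bases before and end 30 bases after the start of transcription, chr1:191906531-191906810 and chr3:135825407-135825686, both on the plus strand. The match begins 43 bases before the start in Slc30a1 and 19 bases before it in Slc39a8. Slc30a1 has another match 31 bases after the start, beyond the stretch shown.
Slc30a1: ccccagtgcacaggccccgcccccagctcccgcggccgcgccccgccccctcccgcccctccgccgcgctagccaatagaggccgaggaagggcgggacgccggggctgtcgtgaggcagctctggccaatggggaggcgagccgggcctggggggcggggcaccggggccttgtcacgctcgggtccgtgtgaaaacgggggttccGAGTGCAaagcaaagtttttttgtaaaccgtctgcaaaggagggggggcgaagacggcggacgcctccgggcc
Slc39a8: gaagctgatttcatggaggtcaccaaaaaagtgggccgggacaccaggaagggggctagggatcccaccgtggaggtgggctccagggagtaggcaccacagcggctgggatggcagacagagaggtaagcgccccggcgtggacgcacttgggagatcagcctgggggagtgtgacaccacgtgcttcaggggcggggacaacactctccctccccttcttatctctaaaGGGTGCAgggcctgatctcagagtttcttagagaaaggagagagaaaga

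Metallothioneins, which bind zinc and copper, were part of a list of 18 metal handling genes, 15 of them tested. In Eo+ against ESC 2 were higher and 8 lower (median -0.33), in Eo- against ESC 1 was higher and 5 lower (median -0.08), and in Eo+ against Eo- 5 were higher and 7 lower (median -0.24). Beside them stand 41.1%, 32.8% and 28.3% of background loci called higher, and 28.6%, 26.7% and 15.9% called lower. Mt1 stood at 228, 259, 170 and 124 CPM in ESC, 229, 314, 344 and 260 in Eo-, and 53.3, 31.6, 95.5 and 34.4 in Eo+. All Eo+ libraries were below all others, by -1.96 ± 0.30 against ESC (adjusted p = 5.3e-05) and -2.54 ± 0.30 against Eo- (adjusted p = 1.8e-05). Mt2 differed in the same way (-2.68 ± 0.27 and -2.64 ± 0.27, adjusted p = 7.8e-07 and 5.1e-06). Slc30a1, given above, differed by -0.02 between the same fractions. For Mt1, the difference of 0.59 ± 0.27 between Eo- and ESC had an adjusted p of 0.076, and of 0.042 without ESC replicate 2 and 0.027 without Eo+ replicate 5.

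Slc40a1, the iron exporter ferroportin, was at 6.88, 6.34, 9.80 and 6.27 CPM in ESC, 28.6, 22.0, 20.9 and 22.2 in Eo-, and 34.2, 12.3, 32.6 and 15.9 in Eo+. Each day 3 library was above each ESC library, and Eo+ spread on both sides of Eo-, with replicates 1 and 5 high as for Slc39a8. The rise was 3.23-fold in Eo- (adjusted p = 0.00054) and 3.01-fold in Eo+ (adjusted p = 0.00071), and the fractions gave -0.10 ± 0.27 (adjusted p = 0.78). Slc31a1, the copper importer, was at 62.5 ± 3.50, 74.9 ± 4.28 and 101 ± 4.14 CPM in ESC, Eo- and Eo+, and was called in all 3 comparisons. Slc11a2, an importer of divalent iron, rose from 39.5 ± 0.923 CPM to 49.6 ± 4.51 in Eo+ (adjusted p = 0.00099). Its smaller rise in Eo- (0.20, adjusted p = 0.026) was lost without ESC replicate 2 or Eo- replicate 2 or 6, with DESeq2 or its size factors, and with the filter of 1 CPM or none (adjusted p of 0.052 to 0.15). The heme carrier Slc48a1, named after its values were seen as the third metal carrier called lower in Eo+ than in ESC beside Slc30a1 and Slc39a14, was at 17.9 ± 1.38, 19.4 ± 1.46 and 12.2 ± 3.02 CPM (-0.58 ± 0.14 in Eo+ against ESC, adjusted p = 0.0018). Slc39a7 gave no reading of its own, since its locus also holds H2-Ke6.

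**Figure D4:**
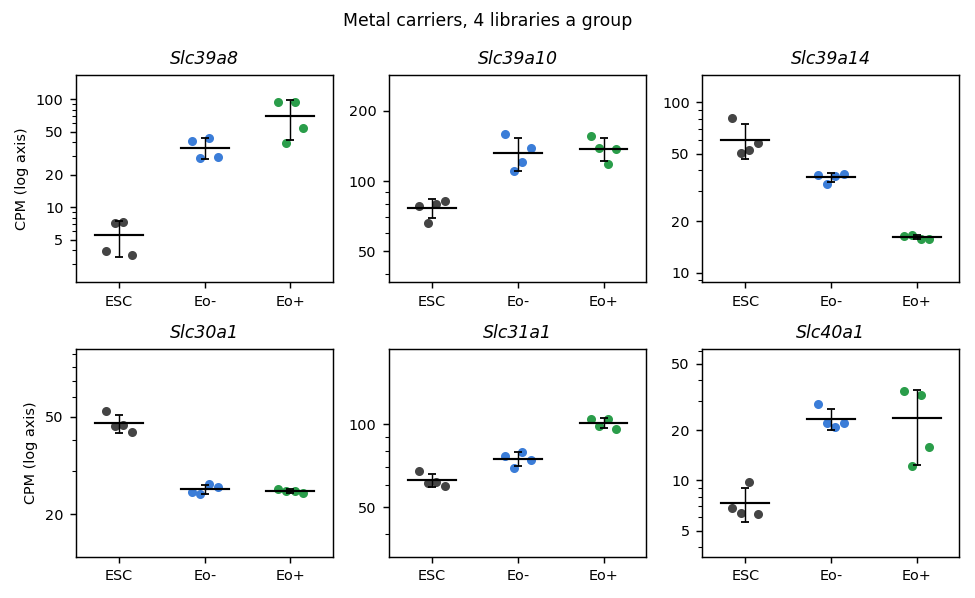
CPM of 6 metal carriers on logarithmic axes, 1 point per library (replicates 1, 2, 5 and 6 from left to right), with the mean and the SD of 4 libraries. Slc39a8 rises from below 8 CPM in ESC to between 39.2 and 94.3 in Eo+, Slc39a14 falls over the 3 groups, and Slc30a1 is about 25 CPM in both day 3 groups.

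Mitochondrial carriers of the Slc25 family, which exchange nucleotides, phosphate, acids and cofactors across the inner membrane, were 34 members, 33 of them tested. In Eo+ against ESC 9 were higher, 16 lower and 8 not called (median -0.12), in Eo- against ESC 11 were higher and 13 lower (median -0.11), and in Eo+ against Eo- 10 were higher and 9 lower (median -0.08). The 48.5% called lower in Eo+ against ESC stand beside 28.6% of background loci. The balance in the other comparisons moved with the scaling, to 11 higher and 11 lower in Eo- against ESC and 8 higher and 9 lower in Eo+ against Eo- with library totals, and to 10 higher and 16 lower in Eo- against ESC with DESeq2 size factors.

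The 2 main ADP/ATP exchangers, Slc25a5 and Slc25a4, did not move alike. Slc25a5, with the highest FPKM of all members (414 in ESC, 306 in Eo- and 283 in Eo+), stood at 865, 809, 850 and 947 CPM in ESC, 625, 640, 635 and 661 in Eo- and 591, 616, 526 and 639 in Eo+. All day 3 libraries were below ESC, by -0.44 ± 0.07 in Eo- and -0.55 ± 0.07 in Eo+ (adjusted p = 6.3e-05 and 4.3e-06). Slc25a4 was at 282, 284, 293 and 248 CPM in ESC, 185, 192, 180 and 166 in Eo- and 410, 278, 305 and 322 in Eo+. The Eo- libraries lay below all others. The exchanger was 1.801-fold higher in Eo+ than in Eo- (0.85 ± 0.10, adjusted p = 2.3e-05) and lower in Eo- than in ESC (-0.61 ± 0.10, adjusted p = 0.00017). The rise of 0.24 ± 0.10 in Eo+ over ESC had an adjusted p of 0.050, just beyond the limit, and was called without Eo- replicate 1 or 6 or Eo+ replicate 2 or 5 (adjusted p of 0.011 to 0.050), and with the replicate block over the 12 libraries (adjusted p = 0.036), library totals, the loci of the normalized table or edgeR (adjusted p of 0.025 to 0.045).

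Slc25a12, the aspartate/glutamate carrier of the malate-aspartate shuttle (mm10, chr2:71270563-71376781, minus strand), had the largest fall of the class. It was measured at 60.4, 55.4, 54.3 and 49.3 CPM in ESC, 12.3, 9.92, 10.01 and 9.76 in Eo-, and 7.73, 6.67, 5.64 and 6.42 in Eo+. The 3 groups did not overlap. It fell 8.32-fold in Eo+ (-3.06 ± 0.12, adjusted p = 2.5e-10), 5.23-fold in Eo- (-2.39 ± 0.10, adjusted p = 2.7e-09) and 1.59-fold between the fractions (-0.67 ± 0.13, adjusted p = 0.0011). Its paralogue Slc25a13, named here after its values were seen, was at 87.1 ± 6.34, 80.3 ± 3.11 and 91.1 ± 5.51 CPM and was called against ESC in neither fraction, although DESeq2 and a fit with its size factors called it lower in Eo- (adjusted p = 0.042 and 0.049).

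Slc25a24, a carrier of ATP-Mg and phosphate, rose to 28.8 ± 4.91 CPM in Eo+ from 7.94 ± 2.56 in ESC and 12.1 ± 1.89 in Eo- (1.89 ± 0.20 and 1.24 ± 0.18, adjusted p = 1.6e-06 and 0.00011). Its rise of 0.65 in Eo- over ESC (adjusted p = 0.020) was lost without ESC replicate 6 or Eo- replicate 1 (adjusted p = 0.060 and 0.059). The phosphate carrier Slc25a3 lay between 549 and 669 CPM in every library, with 613 ± 49.5, 638 ± 26.5 and 563 ± 10.1 CPM in ESC, Eo- and Eo+. Its difference of -0.18 between Eo+ and Eo- (adjusted p = 0.024) was lost without Eo- replicate 2 or 6 or Eo+ replicate 1 or 2 (adjusted p of 0.057 to 0.078). Against ESC, Eo+ differed by -0.12 ± 0.06 (adjusted p = 0.086). This difference was called with DESeq2, its size factors, the filter of 1 CPM or no filter, and without ESC replicate 6. Adjusted p was 0.012 to 0.024 in these 5 alternatives. The citrate carrier Slc25a1 went from 136 ± 18.4 CPM in ESC to 119 ± 10.9 in Eo- and 98.8 ± 5.90 in Eo+, and its fall in Eo+ was called (-0.46 ± 0.10, adjusted p = 0.00085). Its difference in Eo- against ESC was -0.19 ± 0.10 (adjusted p = 0.096), called with the replicate block over the 12 libraries (adjusted p = 0.040) and under 5 other alternatives with adjusted p of 0.0068 to 0.048. The acylcarnitine carrier Slc25a20 fell in both fractions, from 22.4 ± 0.849 CPM to 14.4 ± 1.01 in Eo- and 15.2 ± 1.91 in Eo+ (adjusted p = 5.0e-05 and 9.6e-05).

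Nucleoside and nucleobase carriers were 6 members, 5 of them tested, with 1 higher and 3 lower in Eo+ than in ESC, 2 higher and 2 lower in Eo- than in ESC, and 4 lower in Eo+ than in Eo-. Slc28a1, which concentrates pyrimidine nucleosides with sodium (mm10, chr7:81114799-81170416, plus strand), had the largest change of all tested members. It stood at 42.4, 43.2, 34.6 and 46.3 CPM in ESC, 8.37, 10.7, 8.32 and 9.98 in Eo-, and 0.612, 0.587, 1.19 and 0.833 in Eo+. The 3 groups were far apart, and its mean over all libraries reached 10 through ESC alone. The fall was 53.7-fold in Eo+ (-5.75 ± 0.22, adjusted p = 2.3e-10), 4.45-fold in Eo- (-2.15 ± 0.14, adjusted p = 3.8e-08) and 12.1-fold between the fractions (-3.59 ± 0.23, adjusted p = 2.0e-07). The lowest Eo+ value lies far above 0.00467 CPM, the highest level that 3 counts give in any library.

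Slc29a1, the equilibrative carrier that dominates the class in FPKM, followed the same order at a higher level. It was at 293, 306, 287 and 268 CPM in ESC, 153, 175, 122 and 147 in Eo- and 104, 63.6, 105 and 85.1 in Eo+. The groups did not overlap, and the fall was -1.72 ± 0.14 in Eo+, -0.96 ± 0.14 in Eo- and -0.76 ± 0.14 between the fractions (adjusted p = 1.2e-07, 3.8e-05 and 0.00070). Slc29a3, a carrier of lysosomes that was not tested, had 8.98 ± 0.925, 7.46 ± 0.863 and 12.99 ± 0.858 CPM.

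Carriers of organic ions, peptides and others were 9 members, 7 of them tested, and in each fraction 5 were higher and 2 lower than in ESC, with median log2 fold changes of 1.497 in Eo+ and 1.39 in Eo-. Slc22a23, an orphan member of the organic ion family (mm10, chr13:34179030-34347863, minus strand), stood at 4.95, 5.33, 5.81 and 5.34 CPM in ESC, 21.7, 12.8, 11.1 and 14.8 in Eo- and 55.7, 39.8, 42.2 and 47.6 in Eo+. The groups did not overlap, and the rise was 8.59-fold in Eo+ (3.10 ± 0.20, adjusted p = 1.7e-08), 2.75-fold in Eo- (adjusted p = 6.8e-05) and 3.12-fold between the fractions (adjusted p = 4.7e-06).

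Slc15a2, a carrier of small peptides, rose from 5.49 ± 0.511 CPM to 19.6 ± 5.23 in Eo- and 21.8 ± 3.02 in Eo+ (adjusted p = 3.1e-06 and 5.7e-07). The fractions differed by 0.17 (adjusted p = 0.37), and by 0.36 without Eo- replicate 1 (adjusted p = 0.019), which stood at 27.4 CPM against 16.7 to 17.4 in the other Eo- libraries. The carnitine carrier Slc22a5 rose from 8.57 ± 0.780 to 11.5 ± 0.809 and 12.6 ± 0.590 CPM. The locus of Slc17a9, which fell, also holds Gid8, and its counts cannot be split.

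Carriers of protons, bicarbonate, chloride and cations were 20 members, 15 of them tested. In Eo+ against ESC 6 were higher and 4 lower, in Eo- against ESC 6 higher and 2 lower, and between the fractions 4 higher and 4 lower. The lower ones in Eo- were 4 with DESeq2 size factors and 1 with library totals, beside 6 higher with both. Of the bicarbonate family Slc4, Slc4a2, a chloride/bicarbonate exchanger, was at 18.0 ± 3.15, 28.8 ± 2.42 and 42.3 ± 4.67 CPM in ESC, Eo- and Eo+, and its rise was called in all 3 comparisons. Slc4a5, a sodium bicarbonate cotransporter, went the other way, at 25.6, 27.7, 22.2 and 38.4 CPM in ESC, 22.6, 23.2, 18.7 and 20.1 in Eo-, and 5.64, 5.62, 7.33 and 6.59 in Eo+. All Eo+ libraries were below all others, by -2.15 ± 0.18 against ESC and -1.76 ± 0.18 against Eo- (adjusted p = 1.6e-07 and 7.2e-06), whereas Eo- overlapped ESC. The fall in Eo- against ESC (-0.39, adjusted p = 0.028) was lost without ESC replicate 2 or 6 or Eo- replicate 5 or 6 and with library totals (adjusted p of 0.051 to 0.077).

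Slc4a8, a sodium-driven bicarbonate exchanger, was lower in Eo+ alone, at 12.2 ± 2.59 CPM in ESC, 12.6 ± 1.17 in Eo- and 5.16 ± 1.59 in Eo+ (-1.25 ± 0.20 and -1.32 ± 0.20, adjusted p = 7.5e-05 and 0.00013). The sodium-potassium-chloride cotransporter Slc12a2 was at 45.8 ± 3.61, 47.2 ± 6.86 and 53.8 ± 5.75 CPM. Its difference of 0.19 ± 0.11 between Eo+ and Eo- had an adjusted p of 0.16, and of 0.023 with the pairs as a block among the sorted fractions and 0.044 without Eo- replicate 1. Against ESC it was 0.23 ± 0.11 in Eo+ (adjusted p = 0.077), with adjusted p of 0.024 to 0.049 without Eo- replicate 1 or 2 or Eo+ replicate 2, and of 0.0047 with the replicate block over the 12 libraries. Slc12a9, whose locus had the highest FPKM of the class, shares it with Srrt and Trip6.

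Carriers of phosphate and sulfate were 4 members, of which 3 were lower in Eo+ and 4 lower in Eo- than in ESC (3 in Eo- with library totals). Slc20a1, a sodium phosphate cotransporter, stood at 320, 283, 292 and 260 CPM in ESC, 163, 169, 160 and 183 in Eo- and 124, 141, 149 and 147 in Eo+. The 3 groups did not overlap. It fell by 1.04 ± 0.08 on the log2 scale in Eo+ and by 0.78 ± 0.08 in Eo- (adjusted p = 4.6e-08 and 1.6e-06). The step of -0.27 ± 0.08 between the fractions (adjusted p = 0.012) was lost without Eo+ replicate 1 (-0.20, adjusted p = 0.051). The related Slc20a2 went from 94.6 ± 12.3 CPM to 80.1 ± 3.40 and 75.3 ± 7.78, and its fall in Eo+ was called (adjusted p = 0.0071). Its fall in Eo- (adjusted p = 0.046) was lost when any of 7 libraries was left out, namely ESC replicates 1 and 2, the 4 Eo- libraries and Eo+ replicate 6 (adjusted p of 0.053 to 0.14), and also with library totals, the loci of the normalized table and no filter (adjusted p of 0.081 to 0.12). Slc34a3, counted here as lower in both fractions, shared its locus with the tubulin gene Tubb4b, and its counts cannot be split.

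The E-box CACGTG, bound by Myc and related factors, was in 20 of 111 member promoters (18.0%), in 8.09% of all genes and in 12.5% of genes from other loci at the level tested. The letters ACGTG of the hypoxia response element, which the E-box contains, were in 35.1%, 21.8% and 30.6%. Slc20a1 is shown because it was 2.06-fold lower in Eo+ than in ESC and holds the E-box at 2 places, in capitals, 175 and 22 bases before the start of transcription (chr2:129198523-129198802, plus strand).
Slc20a1: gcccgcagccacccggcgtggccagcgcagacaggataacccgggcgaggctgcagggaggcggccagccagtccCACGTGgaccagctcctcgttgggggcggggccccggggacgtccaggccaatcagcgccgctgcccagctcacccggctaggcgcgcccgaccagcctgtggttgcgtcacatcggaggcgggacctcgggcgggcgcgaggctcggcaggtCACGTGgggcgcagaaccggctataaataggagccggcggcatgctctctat

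Sugar and polyol carriers were 7 members beside the glucose carriers that the rule left out, with 3 higher and 2 lower in Eo+ than in ESC. Slc37a1, a glucose-6-phosphate carrier, was at 24.9, 23.4, 18.6 and 18.1 CPM in ESC, 9.22, 9.08, 8.30 and 8.97 in Eo- and 4.29, 3.21, 5.72 and 3.47 in Eo+. The groups did not overlap, and it fell 5.197-fold in Eo+ (adjusted p = 3.6e-08), 2.38-fold in Eo- (adjusted p = 7.1e-06) and 2.19-fold between the fractions (adjusted p = 0.00024). As for Slc28a1, its mean over all libraries passed the limit through ESC alone. Slc50a1, a small sugar carrier, rose from 8.14 ± 1.43 CPM to 12.4 ± 0.878 in Eo- and 15.9 ± 2.22 in Eo+ (adjusted p = 0.0016 and 2.2e-05). Between the fractions its 0.35 ± 0.13 was called (adjusted p = 0.036), but not with the replicate block over the 12 libraries (adjusted p = 0.053), nor without Eo- replicate 1, 5 or 6 or Eo+ replicate 1, 5 or 6, nor with library totals or no filter (adjusted p of 0.061 to 0.11). The locus of the myo-inositol carrier Slc5a3 was 2.07-fold higher in Eo+ than in Eo-, but it also holds Mrps6 and its counts cannot be split. Slc2a8, an intracellular glucose carrier, was at 15.6 ± 3.19, 18.5 ± 2.27 and 17.8 ± 0.783 CPM and was called in no comparison (adjusted p of 0.12 to 0.80 in the limma fit), but was called higher in Eo- than in ESC with library totals in place of scaled ones (0.33, adjusted p = 0.046).

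Vitamin carriers were 6 members, with 2 higher and 3 lower in Eo+ than in ESC, a split that turned to 3 higher and 2 lower with library totals. Slc19a2, the thiamine carrier, stood at 100, 77.1, 76.6 and 68.7 CPM in ESC, 51.6, 39.1, 42.4 and 44.3 in Eo-, and 39.7, 34.8, 39.2 and 32.4 in Eo+. Both fractions were below ESC, by -0.86 ± 0.12 and -1.13 ± 0.12 (adjusted p = 2.8e-05 and 1.4e-06). Between them the -0.28 ± 0.13 had an adjusted p of 0.083, and of 0.013 with the pairs as a block among the sorted fractions and 0.033 without ESC replicate 1. Slc23a2, a vitamin C carrier, was at 35.2 ± 5.55 CPM in ESC, 33.7 ± 2.88 in Eo- and 19.1 ± 0.266 in Eo+, and fell in Eo+ against both (adjusted p = 8.1e-06 and 5.7e-05).

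The folate carriers moved little. Slc19a1 was at 23.7 ± 1.55, 24.4 ± 2.36 and 27.3 ± 3.54 CPM, and was called higher in Eo+ only without Eo+ replicate 5, with adjusted p of 0.0075 against ESC and 0.025 against Eo-, or against ESC with library totals in place of scaled ones (adjusted p = 0.042). Slc46a1 was at 11.01 ± 2.07, 12.3 ± 1.12 and 14.2 ± 1.196 CPM, with a called rise of 0.38 ± 0.12 in Eo+ over ESC (adjusted p = 0.013) that was lost with no filter on low loci (0.32, adjusted p = 0.066). It was also called in Eo- over ESC without ESC replicate 6 (adjusted p = 0.035), and between the fractions with the pairs as a block (adjusted p = 0.030).

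Choline, lipid and bile acid carriers were 9 members, 8 of them tested, with 3 higher and 3 lower in Eo+ than in ESC, and 1 higher and 4 lower in Eo+ than in Eo-. Slc44a1, the choline carrier, was at 42.3 ± 1.96, 47.4 ± 5.17 and 32.5 ± 6.71 CPM and was lower in Eo+ than in Eo- (-0.56 ± 0.12, adjusted p = 0.0016) and ESC (-0.40 ± 0.12, adjusted p = 0.0082). The fatty acid carrier Slc27a1 was at 14.6 ± 2.38, 21.9 ± 2.24 and 17.3 ± 1.94 CPM, with a called rise in Eo- over ESC (0.59 ± 0.13, adjusted p = 0.0010). Slc27a3, whose locus had the highest FPKM of the class, shares it with Ints3.

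Carriers of nucleotide sugars and acetyl-CoA, which serve glycosylation in the Golgi and acetylation in the endoplasmic reticulum, were 5 members, with 3 higher and 1 lower in Eo+ than in ESC. Of the 5 loci, 2 also held another protein-coding gene, and Slc35a2, counted among the higher, is such a locus. Slc35a1, the carrier of CMP-sialic acid, rose stepwise, at 23.2, 24.96, 25.2 and 25.6 CPM in ESC, 35.3, 34.4, 37.6 and 36.2 in Eo- and 55.5, 56.6, 53.6 and 58.1 in Eo+. The groups did not overlap, with 0.54 ± 0.07 in Eo-, 1.18 ± 0.06 in Eo+ and 0.64 ± 0.06 between the fractions (adjusted p = 1.0e-05, 3.0e-09 and 2.9e-06). Slc33a1, the acetyl-CoA carrier, was at 16.2 ± 2.34, 19.5 ± 1.31 and 25.1 ± 0.682 CPM and was higher in Eo+ than in ESC and Eo- (adjusted p = 4.9e-05 and 0.0060). The locus of Slc35a2 had the highest FPKM of its class and stood at 1156 ± 138 CPM in Eo-, but it also holds Otud5 and Pim2, so its counts give no reading of the carrier. The 2 carboxylate loci, Slc16a6 and Slc16a13, went apart, with 1 lower and 1 higher in both fractions than in ESC. Slc16a13 shared its locus with Bcl6b.

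**Figure D5:**
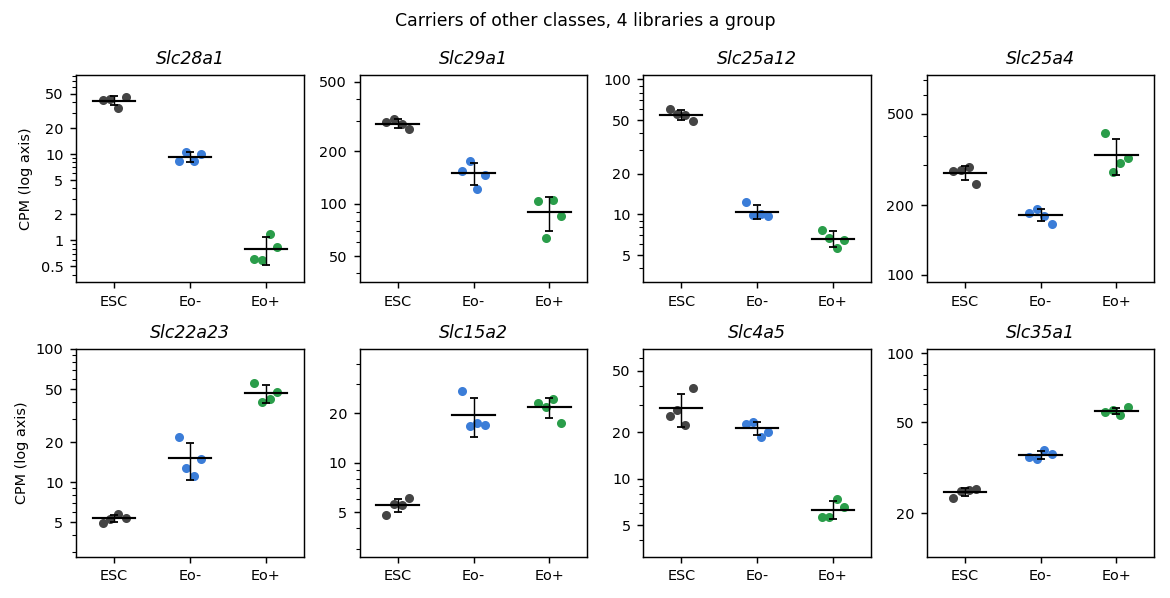
CPM of 8 carriers of other classes on logarithmic axes, 1 point per library (replicates 1, 2, 5 and 6 from left to right), with the mean and the SD of 4 libraries. Slc28a1 falls from 41.6 CPM in ESC to 0.807 in Eo+, and Slc22a23 and Slc35a1 rise over ESC, Eo- and Eo+ with no overlap between groups.

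In all, 19 member loci held another protein-coding gene besides the carrier and 3 more a small RNA gene, so 22 loci held several names. The 115 tested members alone in their locus gave 94, 79 and 70 calls in the 3 comparisons, which is 81.7%, 68.7% and 60.9% of them.

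The 13 members below a mean of 10 over all libraries had entered the set through the groups in which they were high, and their differences are given with no test. In CPM, Slc44a5, a choline carrier-like protein (mm10, chr3:153973436-154271728, plus strand), was at 0.659, 0.348, 0.423 and 0.222 in ESC, 5.16, 3.49, 2.49 and 4.13 in Eo- and 12.9, 13.4, 12.4 and 12.7 in Eo+. Slc4a4, a sodium bicarbonate cotransporter, was at 1.91 ± 0.474 in ESC, 3.97 ± 0.275 in Eo- and 21.5 ± 7.26 in Eo+. Both were highest in every Eo+ library. Slc4a11 and the zinc carrier Slc30a2 were highest in ESC, at 15.7 ± 3.04 and 14.6 ± 2.14 CPM, against 3.74 ± 0.894 and 2.97 ± 0.400 in Eo+. The sodium/proton exchanger of the Golgi Slc9a7 was highest in Eo-, at 12.5 ± 1.12 CPM against 1.88 ± 0.416 in ESC and 9.19 ± 3.41 in Eo+. The lysosomal carrier Slc46a3 and the glutamine carrier Slc38a3 were highest in Eo+, at 14.998 ± 3.28 and 12.4 ± 2.99 CPM. The other 6, Slc29a3, Slc39a13, Slc25a14, Slc26a10, Slc26a11 and Slc17a5, were between 9.90 and 12.99 CPM in their highest group, which was Eo+ for each.

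Several carriers need a partner protein to reach the membrane or to work. On a list of 11 such genes, 10 were tested. In the limma fit, 5 were higher and 3 lower in Eo+ than in ESC (background 41.1% and 28.6%). Eo- against ESC gave 2 higher and 4 lower (background 32.8% and 26.7%). Eo+ against Eo- gave 4 higher and none lower (background 28.3% and 15.9%). Whether this list departs from the background was not tested. Emb, embigin, which escorts lactate carriers of the Slc16 family, was at 208, 182, 259 and 284 CPM in ESC, 528, 463, 511 and 525 in Eo-, and 1586, 1505, 1895 and 1489 in Eo+. The groups did not overlap (2.81 ± 0.12 in Eo+ and 1.14 ± 0.12 in Eo- against ESC, adjusted p = 5.3e-10 and 3.5e-06). Bsg, basigin, its relative with the same role, was at 423 ± 22.9, 413 ± 35.0 and 456 ± 26.9 CPM and was called in no comparison of the fit without pairs.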

How the data were processed

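RNA of 12 libraries (4 ESC, 4 Eo-, 4 Eo+) was sequenced as stranded paired ends. Per the labels, the authors aligned reads to mm10 with STAR, assembled transcripts with Cufflinks 2.2.1 and deposited HTSeq 0.6.1 counts per merged locus. The deposited normalized table is a signal in which the authors divided each library's counts by 1 constant per library, which resembles CPM. Positions come from the deposited assembly, and reads shared by 2 genes of a locus cannot be split.

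The 80012 loci were reduced to protein-coding, annotated lncRNA and unannotated multi-exon loci with a mean FPKM above 0.1 in at least 1 group, which left 17922. Counts were TMM-scaled (edgeR 4.0.16) and fitted with voom and limma 3.58.1 (R 4.3.3) as 3 group means over 12 libraries, with Benjamini-Hochberg adjustment over all loci and 13.5 moderated degrees of freedom. The fit was tested on simulated data. Of all reads, 22.4% to 26.2% were not uniquely aligned, 2.65% to 3.60% fell on no feature and 0.0150% to 0.0193% were ambiguous, and these stayed out of library sizes. A count of 3, the floor, is 0.00354 to 0.00467 CPM, which covers counting error only.

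The members, substrate classes, gene lists and tests were chosen with earlier results of these data known. Named were, in each comparison, the 5 largest rises and falls without overlap, the member with the highest FPKM of each class, untested members that reached 10 in 1 group only, and 40 carriers of textbook role, of which 2 are not reported here. Same-numbered Eo- and Eo+ libraries deviated together from their group means (r of 0.286 to 0.626 over loci in the 4 pairs). Eo- replicate 6 and Eo+ replicate 2 reached r of 0.292, so the values do not set every pair apart. The block takes these numbers as pairs of the sorted fractions, and the main fit does not. Per the study's methods the libraries came from 4 sets of differentiation, while the labels give only the number. Alternatives were other scalings, filters, tests (edgeR, DESeq2 1.42.0), the block, and leaving out each library. Promoters are from RefSeq (GRCm38.p6), in which 111 of 150 members were matched by symbol.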

Additional observations from a re-analysis of the deposited data

Results flagged for a closer look

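Of 198 groups of 4 libraries among the named carriers reported here, 9 held a library whose gap to the nearest other exceeded Dixon's 95% critical value for the share of the group's range. That is 4.55%, and chance gives about 1 in 20.

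In CPM, 4 of these were Eo- replicate 1, which was high for Slc15a2 (27.4, against 16.7 to 17.4 in the other Eo- libraries), Slc25a12 (12.3, against 9.76 to 10.01), Slc40a1 (28.6, against 20.9 to 22.2) and Slc6a6 (116, against 79.1 to 84.3). Eo- replicate 1 also had the highest summed level of blood markers, 128 CPM against 7.37 to 14.7 in the other Eo- libraries. The part of such cells in these values was not tested. Eo- replicate 2 was low for Slc39a14 (33.3, against 37.2 to 37.9).

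Eo+ replicate 5 was high for Slc7a3 (46.0, against 21.2 to 23.1), and Eo+ replicate 1 was low for Slc23a2 by a small amount (18.7, against 19.2 in the others). ESC replicate 5 was high for the locus of Slc5a3 and Mrps6 (42.1, against 28.8 to 30.9) and for Slc19a1 (26.0, against 22.8 to 23.1).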

How the results depend on the processing

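With at least a 2-fold change asked for as well, the calls dropped to 32 in Eo+ against ESC, 16 in Eo- against ESC and 14 in Eo+ against Eo-, from 109, 93 and 80, by construction of the stricter rule (23.4%, 11.7% and 10.2%, background 18.5%, 10.9% and 6.77%). Leaving out 1 library at a time gave 104 to 110, 82 to 97 and 66 to 84 calls. Other scalings, filters and tests gave 102 to 111, 83 to 94 and 65 to 83 calls, and none of these counts moved by over 1.5 times.

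The replicate block over 12 libraries gave 113, 97 and 88 calls (82.5%, 70.8% and 64.2%, background under the same block 73.6%, 64.9% and 50.8%), and the block over the 8 sorted libraries, added after the pairing was seen, gave 96 in Eo+ against Eo- (70.1%, background 55.3%). Same-numbered ESC libraries deviated with Eo- at r of -0.172 to 0.477 and with Eo+ at -0.121 to 0.177 (not every pair deviated together). For single carriers, 282 of 411 pairs of a gene and a comparison were called. Under at most 21 alternatives, 307 pairs kept their side of the threshold, 49 lost a call, 55 gained one and 0 reversed while called. The block over the sorted libraries applied to Eo+ against Eo- alone. The cause of the changed calls was not tested.

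In Eo- against ESC the split of 55 higher and 38 lower became 62 and 32 with library totals and 46 and 45 with DESeq2 size factors, so directions of small changes there depend on the scaling. Members numbered 168 at a minimum of 5, 118 at 20, and 149 when chosen on TMM-scaled CPM.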
